A study of Mus musculus with 5 samples.

Results

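Mesenchymal progenitors of mouse hindlimb muscle were compared between day 14 and day 4 after notexin, a snake venom phospholipase that destroys muscle fibres. The members are cells of these 2 libraries with at least 500 detected genes and at most 10% of their unique molecular identifiers (UMIs) from mitochondrially encoded genes, with summed UMIs under 5 for the tenocyte genes Tnmd, Fmod, Kera and Chad and under 5 for the mural cell genes Rgs5, Kcnj8, Abcc9 and Higd1b. This kept 3810 of 4140 barcodes at day 4 and 2424 of 3527 at day 14, or 6234 of the 17213 barcodes in the series. All 5 libraries came from C57BL/6J mice of genotype Hic1CreERT2/CreERT2;Rosa26LSLtdTomato/+, which at 8 weeks of age received 2.5 mg of tamoxifen in 100 uL of sunflower oil on each of 5 days and then had 10 days of washout. Cells of the whole hindlimb muscle positive for tdTomato were sorted by flow cytometry and then loaded for 10x Chromium 3' v2 chemistry, for an uninjured (quiescent) library and for days 1, 2, 4 and 14. The Hic1 locus drives the recombinase and both of its alleles carry it, and the recombinase acts only while tamoxifen is present, so the reporter marks cells that expressed Hic1 during that course and their descendants, tenocytes and mural cells among them. How many animals were pooled for a library is not given in the sources used here. With 1 library per day there are no replicates, so no p-value is given and every difference is one between 2 libraries, day 14 and day 4.

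Muscle mesenchymal progenitors, also called fibro-adipogenic progenitors, are connective tissue cells that lie between the fibres. In resting muscle they divide little and maintain the matrix and the stem cell niche. After injury they secrete cytokines, divide and lay down provisional matrix, and as the fibres regrow their number falls and the survivors resume a resting state.

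The cells kept by the gate carried progenitor markers in both libraries. Summed UMIs of Pdgfra, Dcn, Col1a1, Ly6a, Cd34 and Lum reached 5 in 3801 of the 3810 cells at day 4 and in 2416 of the 2424 at day 14. These markers are not particular to the kept cells. Their summed level at day 4 and day 14 was 24938 and 32008 CPM (counts per 1000000 UMIs) in kept cells. It was 26085 and 32536 in tenocyte-gated and 6497 and 3260 in mural-gated cells, so the sum does not set progenitors apart from tenocytes. Hic1, the repressor that defines the lineage, was at 30.9 counts scaled to a library total of 1000000 UMIs (CPM) at day 4 and 36.1 at day 14, a ratio of 1.17. Pdgfra, the surface receptor of these cells, was at 189.9 and 252 CPM, Ly6a at 2562 and 2209.6, and Cd34 at 865 and 1464. None of these changed 2-fold. The tdTomato transcript was 1.78 times as high at day 14, and that of CreERT2 was at 0.0998 and 0.0803 CPM, or 3 counts and 1 count.

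The 2 libraries were not alike in depth or in what the gate removed. Kept cells held 30059856 UMIs at day 4 (median 7072 per cell) and 12451460 at day 14 (median 4938). The gate for tenocytes took 183 cells at day 4 and 808 at day 14, or 4.46% and 23.3% of the cells of good quality, and the mural gate took 115 and 247. Just inside the tenocyte gate, 71 cells at day 4 and 61 at day 14 had 3 or 4 UMIs of its genes, and just outside it 33 and 21 cells had 5 or 6. Summed over 8 markers, the tenocyte level in the kept cells was 282 CPM at day 4 and 295 at day 14, against 7023 and 26911 in the tenocyte-gated cells. The sum hides a shift, since 2 of the 3 markers that reached 20 CPM were higher at day 14 and none lower. Kept cells with 0 UMIs of the 4 tenocyte gate genes were 88.6% at day 4 and 72.2% at day 14. Schwann cell markers went from 14 to 139 CPM, perineurial markers from 13 to 42.9, endothelial markers from 7.58 to 23.3 and macrophage markers from 13.3 to 2.49. The 2 libraries shared 21 barcodes, 11 of them among kept cells.

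A gene was called higher or lower at day 14 when its level differed at least 2-fold and reached 20 CPM in one of the libraries. Of 5843 genes that reached 20 CPM, 468 (8.01%) were higher and 313 (5.36%) lower, and these percentages are the background for every count of list members. Intervals are exact conditional binomial intervals and cover counting error only. Scaling by the trimmed mean of M-values (TMM) moved the median log2 ratio of all these genes from -0.02 to -0.14 and the split to 370 higher and 398 lower. Size factors of DESeq2 gave 349 and 436. Log2 ratios below have a prior of 1 CPM, and list medians are over members with at least 5 CPM, for which the median of all 9961 genes was 0.06.

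**Figure D1:**
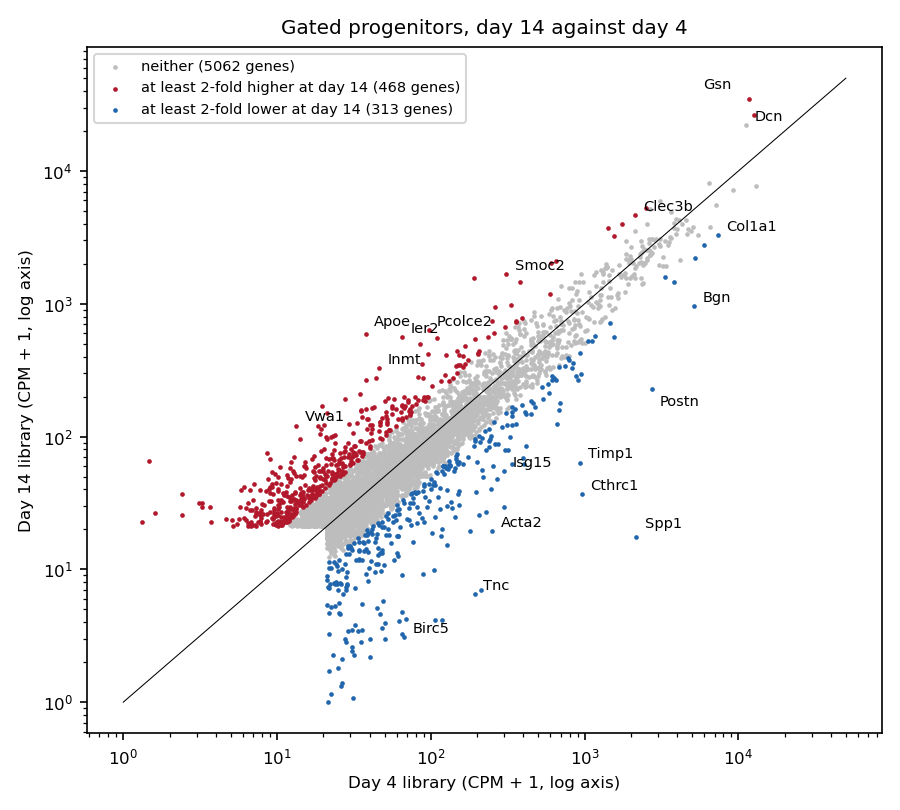
Level of each of 5843 genes in gated progenitors at day 4 (horizontal) and day 14 (vertical), both as CPM + 1 on log axes, with 1 point per gene and 1 library per axis. Injury genes such as Spp1, Postn, Cthrc1 and Timp1 lie far below the diagonal, and Gsn, Smoc2 and Clec3b lie above it among the abundant genes.

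A large share of the higher genes was not particular to progenitors in these files. Of the 468, 240 were also at least 2-fold higher in both the tenocyte-gated and the mural-gated cells of the same libraries, and 91 in neither. There were 158 genes that were already at least 2-fold lower at day 2 than in both the quiescent and the day 1 libraries, and 140 of them were among the 468. Apoe, a secreted lipid carrier, had 166 CPM in quiescent cells, 36.9 at day 4 and 591 at day 14, and 16.9 at day 2. Its ratio was 16 in progenitors, 23.4 in tenocyte-gated and 4.46 in mural-gated cells. Unlike a return to the quiescent level, its level at day 14 was above it. The 5% of progenitors with the most Apoe held 77.6% of its UMIs at day 4 and 62.8% at day 14. With cells thinned to an equal number of UMIs, it was seen at day 14 in 27.9% of progenitors. The share was 82.4% of tenocyte-gated and 12.9% of mural-gated cells. Whether tenocytes left among the kept cells contribute was not tested. Tomm20, a receptor of the mitochondrial import channel, had 101 CPM before injury and 209, 25.2, 19.1 and 122 on the 4 days in turn. Nol7, a nucleolar protein, was 6.84-fold higher at day 14 in progenitors and 7.1-fold in tenocyte-gated cells. Lysmd2 (7.41-fold), Phlda1 (7.13-fold), Prkcdbp (6.19-fold) and Aldh2, the mitochondrial aldehyde dehydrogenase (5.92-fold), likewise stood at least 4-fold higher in both other classes. The nuclear RNA Malat1 was 2.08 times as high in progenitors, 2.01 in tenocyte-gated and 2.35 in mural-gated cells. Day and library are the same here, so a shift of the day 2 and day 4 libraries cannot be told apart from a shift with time. For that reason the ratio in the gated-out cells is given beside the main genes. Of the 313 lower genes, 132 were also at least 2-fold lower in both other classes and 50 in neither, again without a share over all genes.

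**Figure D2:**
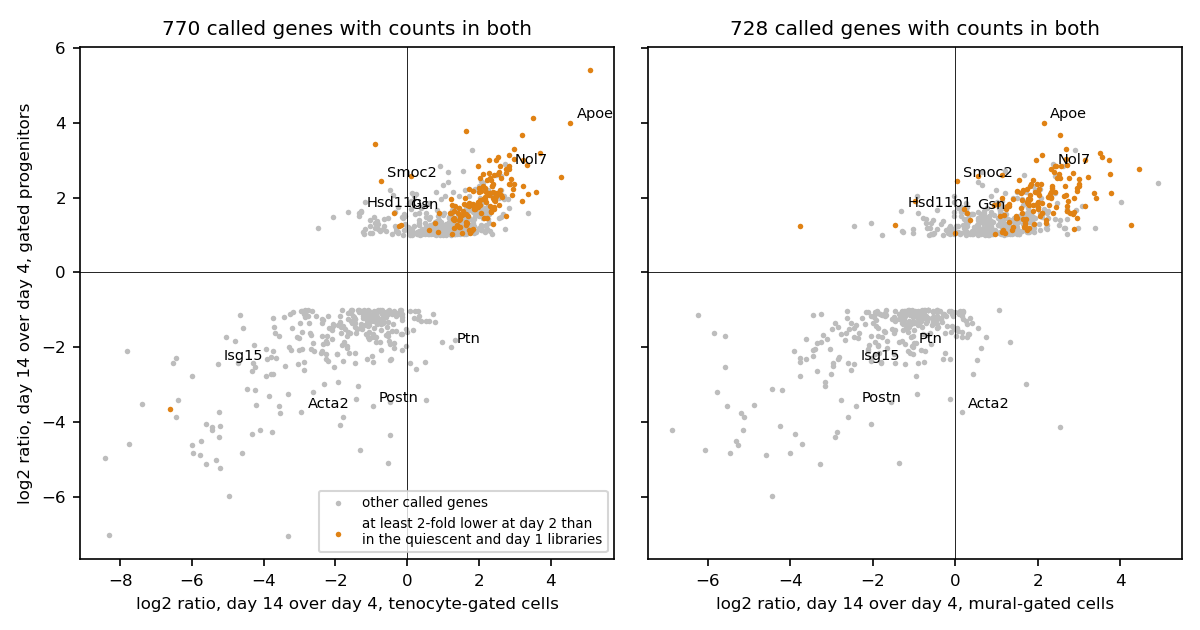
Log2 ratio of day 14 over day 4 in gated progenitors (vertical) against the same ratio in tenocyte-gated (left, 770 genes) and mural-gated cells (right, 728 genes), for called genes with counts in both, 1 point per gene. Genes that were low at day 2 (orange) lie mostly at high ratios in all 3 classes, as Apoe and Nol7 do, whereas Smoc2 and Hsd11b1 are high in progenitors and near or below 0 in the others.

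Mitosis transcripts were nearly gone at day 14. All 15 mitosis genes that reached 20 CPM were lower and none higher, with a list median log2 ratio of -3.44. The summed list had 59 CPM before injury and 1757 at day 2, then 686 at day 4 and 34.5 at day 14, which was under the quiescent level. Birc5, the survivin subunit of the chromosomal passenger complex, was 31.6-fold lower (95% interval 21.5 to 48.4), at 65.9 CPM and then 2.09. Ccnb2, a mitotic cyclin, was 28.5-fold lower (95% interval 19.6 to 42.9). Its partner cyclin Ccnb1 was at 25 CPM at day 4, with 4 counts at day 14. Hmmr, which organises the spindle, had 20.6 CPM at day 4 and 0 counts at day 14. Against a floor of 3 counts in the day 14 library it was at least 85.3-fold lower. After every cell was thinned to 2500 UMIs, 8.25% of cells at day 4 and 0.247% at day 14 had 2 or more UMIs of the list, against 0.331% of quiescent cells. Thinning left out 63 shallower cells at day 4 and 398 at day 14. All 15 genes were also lower in the tenocyte-gated and the mural-gated cells.

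DNA replication genes were lower less uniformly. Of 10 measured members 5 were lower and none higher, with a median of -0.87, and all 5 were also lower in both other classes. Thymidine kinase Tk1, which recycles thymidine in S phase, was 23.9-fold lower (95% interval 14.7 to 42.1), and Rrm2, the regulated subunit of ribonucleotide reductase, was 9.25-fold lower (95% interval 6.33 to 14). Gins2, part of the replicative helicase, went from 20.3 to 4.42 CPM and Tyms, thymidylate synthase, from 43.1 to 16.3. Pcna, the sliding clamp, was level at 31.8 and 30.7 CPM. Cks2, a small subunit of cyclin-dependent kinases and one of the 12 genes of lowest ratio, was 11.8-fold lower (95% interval 9.72 to 14.4).

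Matrix genes of the injury response were among the steepest falls. Of 17 measured members 11 were lower and 1, Tgfbi, was higher, and the list summed to 2921 CPM in quiescent cells, 11208 at day 4 and 3594 at day 14. Postn, the matricellular protein periostin, had 100.1 CPM in quiescent cells, 2723 at day 4 and 226 at day 14, and was 12-fold lower (95% interval 11.6 to 12.5). Cthrc1, a secreted protein of activated fibroblasts, had 6.16 CPM in quiescent cells, 965 at day 4 and 36.1 at day 14, and was 26.8-fold lower (95% interval 24.4 to 29.4). Tenascin C (Tnc), an adhesion-modulating glycoprotein, had 2.05 CPM in quiescent cells, 192 at day 4 and 5.54 at day 14. Adam12, a membrane protease of activated mesenchyme, was 19.5-fold lower (95% interval 13.1 to 30.2). Col8a1 was 5.28-fold lower, Thbs2 2.89-fold and Aspn 2.03-fold, whereas fibronectin (Fn1) stood at 1272 and 1159.5 CPM. Tenocyte-gated cells carried these genes too. In tenocyte-gated cells Postn was 1.94-fold lower, Cthrc1 2.47-fold and Tnc 1.44-fold. With no gate the log2 ratio of Postn was -2.19, of Cthrc1 -2.69 and of Tnc -1.45, against -3.58, -4.70 and -4.88 with it.

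The UMIs of the falling genes were spread over cells to different extents. In thinned cells a Postn UMI was seen in 71.4% at day 4 and 17.7% at day 14 (unthinned 79.5% and 25.6%), beside 62.3% and 27.3% of mural-gated cells, whose median depths were 4059 and 2786 UMIs. The share of Postn is thus near that of mural-gated cells and is not read as the share of progenitors expressing it. Cthrc1 was seen in 47.3% and 5.48% of progenitors (unthinned 59.3% and 8.29%) and in 12.3% and 0.719% of mural-gated cells. Spp1, which encodes the secreted phosphoprotein osteopontin, was concentrated in few cells. It had the lowest log2 ratio among genes with at least 100 CPM, with 0.274 CPM in quiescent cells, 2167 at day 4 and 16.6 at day 14, and was 130.3-fold lower (95% interval 114 to 150.1). The 38 cells (1%) with the most Spp1 held 62.8% of its UMIs at day 4, and 190 cells (5%) held 97.1%. Its UMI was seen in 13.5% of thinned progenitors (unthinned 22.8%) but also in 13.2% of mural-gated cells, and a share at the level of another class is read as background. Haptoglobin (Hp), an acute phase protein, went from 118 to 3.13 CPM with 51.6% of its day 4 UMIs in 38 cells.

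Structural collagens changed far less than the injury matrix. Of 15 genes for fibrillar collagens and their partners 2 were lower and none higher, with a median of -0.48. Col1a1, the main chain of type I collagen, had 2289 CPM in quiescent cells, 7366 at day 4 and 3277 at day 14, and was 2.25-fold lower (95% interval 2.22 to 2.27). In tenocyte-gated cells it was 1.26 times as high at day 14. Biglycan (Bgn), a small proteoglycan that binds collagen and growth factors, had 828 CPM in quiescent cells, 5157 at day 4 and 964 at day 14. It was 5.35-fold lower (95% interval 5.25 to 5.45). Col3a1 stood at 9279 and 7223 CPM, a ratio of 0.778, and Col16a1 at 82.3 and 44.3. Decorin (Dcn), which coats collagen fibrils, went the other way, from 11286 to 22308 CPM against 23756 in quiescent cells, a ratio of 1.98 that lies just under the call.

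Some enzymes that process collagen were lower. Of 21 members 6 were lower and none higher, with a median of -0.80. Lysyl oxidase (Lox), which crosslinks collagen and elastin, had 23.3 CPM in quiescent cells, 204 at day 4 and 24.9 at day 14, and was 8.18-fold lower (95% interval 7.3 to 9.2). Loxl3 of the same family was 4.52-fold lower, the prolyl hydroxylase subunit P4ha3 5.15-fold and the collagen chaperone Fkbp10 3.34-fold. Serpinh1, the chaperone HSP47, went from 3819.8 to 1469.9 CPM, and Plod3 from 73.4 to 36. Loxl1, Loxl2 and Adamts2 had ratios of 0.956, 0.873 and 0.958. General folding genes of the endoplasmic reticulum were split, with 3 of 19 lower and 2 higher. The disulfide isomerases Pdia6 and Pdia4 were 2.34-fold and 2.1-fold lower, while the co-chaperones Sdf2l1 and Dnajc3 were 2.58-fold and 2.11-fold higher.

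Contractile genes of the myofibroblast kind were lower in part. Of 18 members 7 were lower and none higher, with a median of -0.86, and none of the 7 was at least 2-fold lower in both other classes. In mural-gated cells the 7 had ratios from 0.542 for Actb, cytoplasmic actin, to 3.28 for Tagln. Smooth muscle actin (Acta2) had 14.2 CPM in quiescent cells, 249.7 at day 4 and 18.6 at day 14, and was 13.5-fold lower (95% interval 11.8 to 15.4), against 7.75-fold in tenocyte-gated cells and a ratio of 1.12 in mural-gated cells. Tagln, an actin-bundling protein, was 7.91-fold lower (95% interval 6.47 to 9.77). Tropomyosin Tpm2 was 5.1-fold lower and calponin Cnn2 3.25-fold, whereas Myl9, Vcl and Flna moved by less than 2-fold. At day 4 the top 1% of cells held 31.3% of Acta2 UMIs, and a UMI was seen in 14.8% of thinned progenitors and 81.1% of mural-gated cells, which express the gene themselves. Mural UMIs summed over 8 markers were 31.6 and 46.2 CPM in the kept cells. With no gate the log2 ratio of Acta2 was -0.24 and that of Tagln 0.68, so the fall of Acta2 shrinks and that of Tagln turns without the gate.

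Interferon response genes, high at day 4, were back at about their quiescent level at day 14. Of 19 measured members 14 were lower and none higher, with a median of -1.75, and the sum went from 3876 CPM in quiescent cells to 9474 at day 4 and 3737 at day 14. All 14 were also lower in both other classes. Irf7, a transcription factor of the interferon response, had 25 CPM in quiescent cells, 227 at day 4 and 26.3 at day 14, and was 8.66-fold lower (95% interval 7.75 to 9.71). The nucleic acid sensor Zbp1 was 6.88-fold lower (95% interval 5.98 to 7.95). Lgals3bp, a secreted glycoprotein, was 6.59-fold lower (95% interval 6.12 to 7.09). Isg15, a ubiquitin-like modifier, had 24.6 CPM in quiescent cells, 298 at day 4 and 54.3 at day 14, and was 5.5-fold lower (95% interval 5.08 to 5.95). Isg15 was 38.7-fold lower in tenocyte-gated and 5.45-fold lower in mural-gated cells. Day 2 progenitors had 23.4 CPM of Irf7 and 27.2 of Isg15, so both were higher at day 4 than in any other library. The fall was seen in most cells, since the list held a median of 0.80% of a thinned cell's UMIs at day 4 and 0.32% at day 14, and 5.03% of day 14 cells lay above the day 4 median.

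The interferon-stimulated response element is the sequence that the interferon-activated STAT and IRF factors bind. It was searched as GAAANNGAAA on both strands of the 250 bases before each gene's start, with overlapping matches allowed, in RefSeq promoters of GRCm38.p6. It was found for 6 of the 15 list members with a promoter entry, out of 21 (40%), and for 4 of 9 matched members that were lower, against 936 of 27025 genes (3.46%). The windows of 3 lower genes are given 5′ to 3′ on the gene's strand with the matches in capitals, to show the letters behind that count. They were chosen after the values were seen. A match is a description of the sequence and no binding was measured. The Isg15 window, chr4:156200835-156200936 on the minus strand, has 3 overlapping matches whose starts lie between -78 and -66 from the gene's start. The Ifit1 window, chr19:34640745-34640853 on the plus strand, and the Ifit3 window, chr19:34583333-34583456 on the plus strand, each have 2 matches on the opposite strand. Ifit1 and Ifit3 encode proteins that bind foreign RNA, and went from 111 to 34 CPM and from 134 to 31.3 CPM.
Isg15: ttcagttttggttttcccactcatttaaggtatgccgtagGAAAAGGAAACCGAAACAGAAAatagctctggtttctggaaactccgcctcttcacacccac
Ifit1: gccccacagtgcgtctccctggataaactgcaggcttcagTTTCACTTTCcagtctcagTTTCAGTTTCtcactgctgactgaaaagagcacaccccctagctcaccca
Ifit3: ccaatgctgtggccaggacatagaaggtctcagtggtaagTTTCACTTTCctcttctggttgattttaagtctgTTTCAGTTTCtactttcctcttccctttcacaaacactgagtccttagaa

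Antigen presentation and chemokines fell in part. Of 7 genes for major histocompatibility class I and peptide loading 2 were lower, the peptide transporter Tap1 (2.94-fold) and the light chain B2m (2.08-fold). Both were also lower in the tenocyte-gated and the mural-gated cells. H2-K1 went from 619.6 to 335 CPM and Tapbp from 308 to 198. Of 16 chemokines and cytokines 6 were lower and none higher, and 5 of the 6 were also lower in both the tenocyte-gated and the mural-gated cells. Cxcl9, a T cell attractant induced by interferon gamma, was 33.6-fold lower (95% interval 24.5 to 47.4). Ccl8 and Ccl7, which attract monocytes, had 245 and 536 CPM at day 4 and 39.5 and 190.3 at day 14. They were 6.21-fold and 2.82-fold lower. Ccl5 went from 34.5 to 2.49 CPM, but 38 cells held 99.5% of its day 4 UMIs. The resident chemokines Cxcl12 and Ccl11 had ratios of 0.951 and 1.4.

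Proteases fell and rose within the same list. Of 20 members 5 were lower and 3 higher. All 5 were also at least 2-fold lower in both the tenocyte-gated and the mural-gated cells, and none of the 3 was higher in both. Timp1, an inhibitor of metalloproteinases, had 41.2 CPM in quiescent cells, 927 at day 4 and 62.8 at day 14 and 4711 at day 1, and was 14.8-fold lower (95% interval 13.7 to 15.9). The collagenase Mmp13 was 12.6-fold lower (95% interval 9.39 to 17.4), the stromelysin Mmp3 3.09-fold lower and the aggrecanase Adamts4 3.61-fold lower. Timp3, the inhibitor bound to matrix, went from 165 to 482 CPM, against 577 in quiescent cells. Adamts5 was 2.37-fold higher and the gelatinase Mmp2 2.0-fold. Other genes among the 12 of lowest ratio were Ctsc, a lysosomal protease (35.2-fold lower), Tmem176a, a membrane protein (10.4-fold), and Angptl4, an inhibitor of lipoprotein lipase (9.63-fold).

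Among genes of growth metabolism few passed the call outside glycolysis. Abundant genes in general lay slightly below a log2 ratio of 0, and small negative list medians are to be read beside that. The 1246 genes with at least 100 CPM in quiescent cells, without the resting genes defined below, had a median of -0.14, with 776 below 0. Of 13 glycolysis genes 4 were lower, among them Ldha, which makes lactate (651 to 265 CPM), Pkm, pyruvate kinase (528 to 236), and Pfkl, a phosphofructokinase (22.8 to 6.83). The 1 higher gene was the glucose transporter Slc2a1 (2.42-fold), which is also a perineurial marker. Its log2 ratio was 1.19, and 0.33 without the 63 cells at day 4 and 51 at day 14 that carried markers of other classes. All 22 proteasome genes were below a log2 ratio of 0, with a median of -0.44 and none called, the widest being Psmb2 at 1.72-fold lower (Psmd14 1.61, Psma4 1.52 and Psmc4 1.49). Ribosome biogenesis genes had a median of -0.34, with 1 of 18 higher (Gar1, 3.42-fold) and none lower. Npm1, a nucleolar chaperone, went from 848 to 523 CPM, Nhp2 from 111 to 63.9 and Nop16 from 33.3 to 18.5. Nuclear genes of oxidative phosphorylation had a median of -0.20. Of 30, 2 were higher, Cyc1 (4.77-fold) and Cox5a (4.53-fold), and both were low at day 2 and higher in both other classes. Atp5g1 and Uqcrc1 had ratios of 0.571 and 0.589. Among 12 genes of the ATF4 and amino acid programme, asparagine synthetase (Asns) was 2.8-fold lower and the factor Atf5 3.46-fold higher. Aldh18a1 and Pck2 were 1.94-fold and 1.85-fold lower, under the call. Of 16 S100, annexin and galectin genes Lgals1 (2.17-fold) and S100a16 (2.02-fold) were lower, and Lgals3 and Anxa3 had ratios of 0.611 and 1.53.

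**Figure D3:**
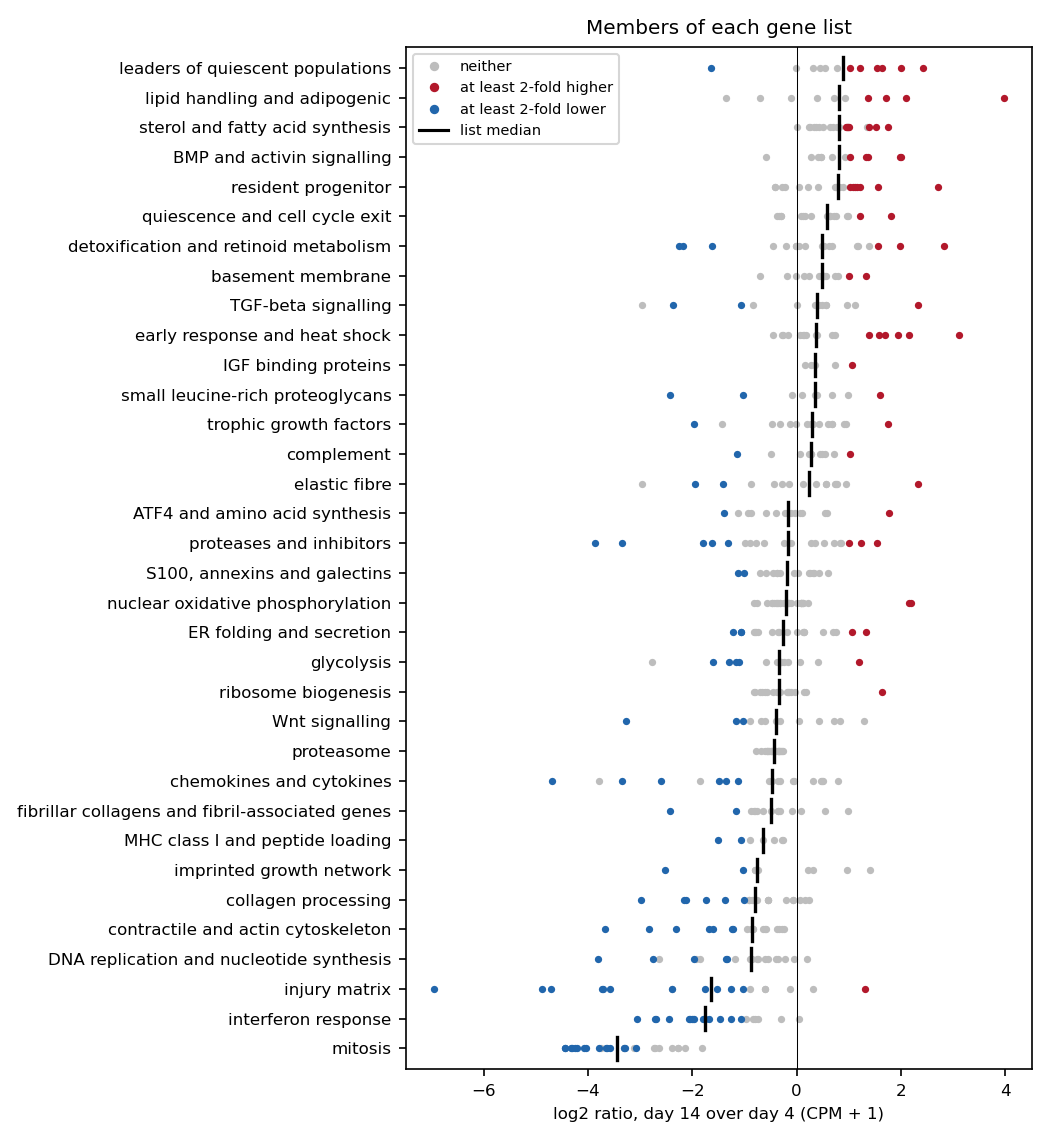
Log2 ratio of day 14 over day 4 (CPM + 1) for each member with at least 5 CPM of the 34 gene lists other than ribosomal proteins, 1 point per gene and a bar at each list's median. Mitosis (-3.44), interferon (-1.75) and injury matrix (-1.63) have the lowest medians, and the leaders of quiescent populations (0.90), lipid handling (0.82) and sterol synthesis (0.81) the highest.

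Resting genes came back to near their level before injury. They were defined without the 2 libraries compared, as the 222 genes with at least 100 CPM in quiescent cells that were at least 2-fold lower at both day 1 and day 2. At day 14 75 of them were higher than at day 4 and 2 were lower, beside 59 of 1246 (4.74%) of the other genes with at least 100 CPM in quiescent cells. As a percentage of the quiescent level, their median was 22.5% and 31.0% on the first 2 days, 51.8% at day 4 and 89.2% at day 14. At day 4 113 of the 222 were within 2-fold of the quiescent level, and at day 14 212. Of the 1246 other genes 1121 were within 2-fold of it at day 4 and 1235 at day 14. Of the 75, 20 were also higher in both other classes. The count of 75 was 57 with TMM scaling, 53 with DESeq2 size factors and 51 with each cell thinned. It was 88 with totals that leave out the most abundant genes. The 10 outside at day 14 included Mfap4, an elastic fibre protein at 267% of its quiescent level, and Dusp1 and Klf9, which were still at 46.8% and 47.3%. The rest were Rps29, Rps28, Rps27rt, Atp5k, mt-Nd3, Gm10263 and Tnfaip2, between 30.1% (Rps28) and 48.4% (mt-Nd3). The class was not filtered for ribosomal protein, mitochondrially encoded or predicted genes. Gsn encodes the actin-severing protein gelsolin. It had 35586 CPM in quiescent cells, 11747 at day 4 and 34885 at day 14, and was 2.97-fold higher (95% interval 2.96 to 2.98). Clec3b, the secreted protein tetranectin, had 4266 CPM in quiescent cells, 2126 at day 4 and 4649.8 at day 14, and was 2.19-fold higher (95% interval 2.16 to 2.21). Igfbp6, a binding protein for insulin-like growth factor 2, had 4565 CPM in quiescent cells, 2503 at day 4 and 5263 at day 14, and was 2.1-fold higher (95% interval 2.08 to 2.12). Col3a1 and Tmsb10, also resting genes by this rule, had ratios of 0.778 and 0.987. The predicted transcript Gm42418 was 2.26-fold higher, and 2.24-fold in tenocyte-gated cells. The 2 resting genes that were lower, Cilp and Nrep, had overshot, with 884 CPM for Cilp at day 4 against 225 in quiescent cells and 287 at day 14.

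Induced genes, the 222 with at least 100 CPM at day 1 or day 2 and at least 2-fold above quiescent on both days, went down. At day 14 50 of them were lower than at day 4 and none was higher, beside 73 of 1542 (4.73%) of the other genes with at least 100 CPM on either day. Their median level was 164% of quiescent at day 4 and 109% at day 14, and 162 and then 216 of the 222 were within 2-fold of quiescent. Of the 1542 other genes 1367 and then 1525 were. Of the 50, 24 were also lower in both other classes. The count of 50 was 54 with TMM scaling, 57 with DESeq2 size factors and 38 with each cell thinned. The 6 outside at day 14 were Spp1, Cthrc1, Gsto1, Saa3, Icam1 and Spc24. Cthrc1 was still 5.86 times its quiescent level. Saa3, an acute phase apolipoprotein, had 30.4 CPM at day 4 and 1 count at day 14, a ratio of 379-fold lower with an interval of 67.8 to 14970. Icam1, an adhesion molecule for leukocytes, was at 49.3 and 62.2 CPM, against 25.3 in quiescent cells. The 8 induced genes with the most UMIs at day 2 were all ribosomal protein genes, from Rplp0 with a day 14 over day 4 ratio of 0.603 to Rpl32 with 0.847, and none was called. Rps6 (0.693), Rpl3 (0.649), Rps3 (0.812), Rpl10a (0.794), Rpsa (0.738) and Rpl4 (0.744) lay between them.

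**Figure D4:**
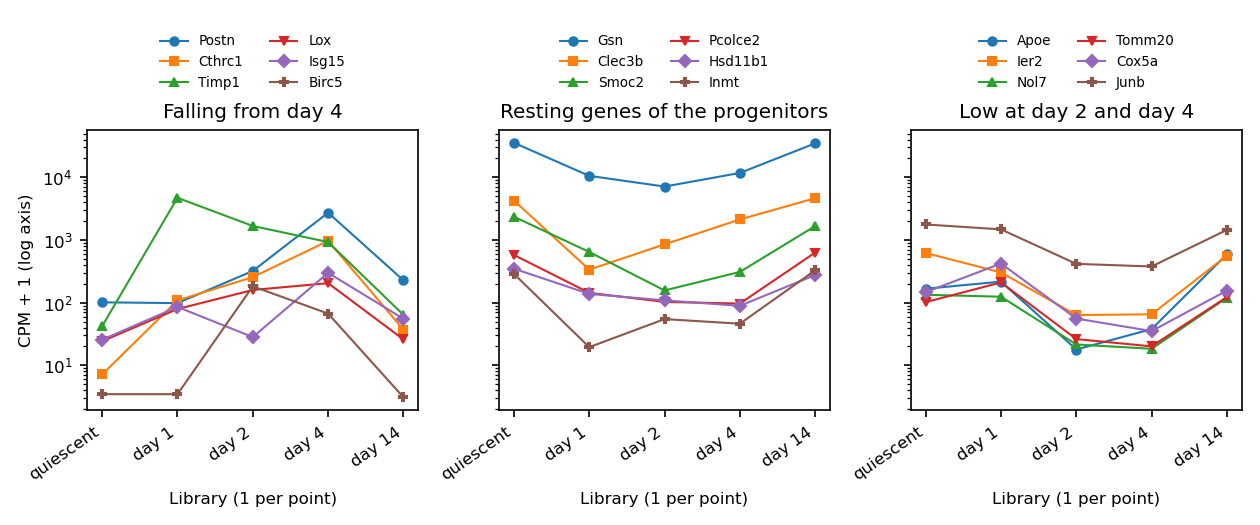
Level in gated progenitors (CPM + 1, log axis) in the quiescent, day 1, day 2, day 4 and day 14 libraries, 1 library per point, for 6 genes that fell from day 4, 6 resting genes and 6 genes that were low at day 2 and day 4. The resting genes return to within 2-fold of the quiescent level at day 14, as Gsn does with 34885 against 35586 CPM.

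Some genes that identify the resident progenitor were higher. Of 22 measured members 7 were higher and none lower, with a median of 0.79, and 13 of the list are resting genes by the rule above. Their sum was 52587 CPM in quiescent cells, 25516 at day 4 and 54122 at day 14, and most of that difference is Gsn, whose levels are given above. Pcolce2, an enhancer of procollagen cleavage, had 577 CPM in quiescent cells, 95.8 at day 4 and 629.8 at day 14, and was 6.58-fold higher (95% interval 6.3 to 6.87). In tenocyte-gated cells it was 2.97-fold higher and in mural-gated cells 2.31-fold. Ackr3, a scavenging receptor for Cxcl12, was 2.32-fold higher (95% interval 2.23 to 2.42), with ratios of 1.02 and 1.38 in the other classes. Procr, the protein C receptor, was 2.24-fold higher (95% interval 2.15 to 2.34). Cd55, which protects cells from complement, and the angiopoietin receptor Tek were 2.05-fold and 2.14-fold higher. Pi16 and Dpp4, which mark progenitors of the outer connective tissue, had ratios of 1.66 and 1.71, under the call, and Thy1 of 0.746. Per cell the list held a median of 2.48% of UMIs at day 4, with 10th and 90th percentiles of 0.60% and 6.76%. At day 14 these were 5.4%, 2.74% and 8.26%, close to the 5.2%, 3.4% and 7.56% of quiescent cells. Of day 14 cells 92.1% lay above the day 4 median. Gsn is counted in this per-cell share too, and the share without it was not computed.

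**Figure D5:**
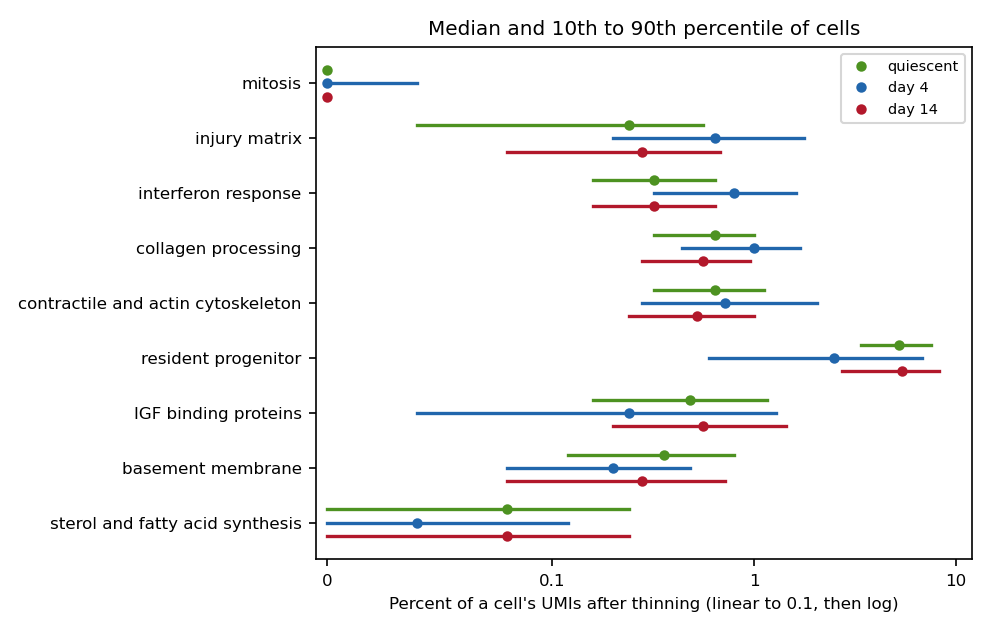
Percent of a cell's UMIs in 9 gene lists after thinning to 2500 UMIs (axis linear to 0.1, then log), for 1510 quiescent, 3747 day 4 and 2026 day 14 cells, with a point at the median and a line from the 10th to the 90th percentile of cells. The day 14 median lies close to the quiescent one for the interferon and resident progenitor lists, the latter with Gsn, its most abundant member. The day 4 median differs there, while the ranges of cells overlap.

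Genes that lead the populations of quiescent progenitors returned unequally. This list was drawn from the quiescent cells of the same series, so its direction is not independent evidence. Of 12 members 6 were higher and 1 lower. Smoc2, a secreted calcium-binding matrix protein, had 2351 CPM in quiescent cells, 309 at day 4 and 1668 at day 14, and was 5.41-fold higher (95% interval 5.28 to 5.54), with ratios of 0.60 in tenocyte-gated and 1.02 in mural-gated cells. Hsd11b1, which activates glucocorticoids, had 348 CPM in quiescent cells, 88.1 at day 4 and 275 at day 14, and was 3.12-fold higher (95% interval 2.96 to 3.28), with ratios of 0.407 and 0.404. Gdf10, a secreted factor of the transforming growth factor superfamily, was 4.21-fold higher (95% interval 3.73 to 4.76). Stmn4 and Krtdap were 2.95-fold and 2.35-fold higher, and Dmkn was level at 36.9 and 36.8 CPM against 83.7 in quiescent cells. Lubricin (Prg4), which lubricates tissue surfaces, had 163 CPM in quiescent cells, 274 at day 4 and 87.7 at day 14 and 1542 at day 1. It was 3.13-fold lower (95% interval 2.94 to 3.33).

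Few genes of the basement membrane, elastic fibres and proteoglycans passed the call. Of 12 basement membrane genes 2 were higher and none lower, with a median of 0.49, and 10 of the list are resting genes. The laminin chains Lamb2 and Lama2, which anchor the muscle fibre surface, were 2.53-fold and 2.02-fold higher. Perlecan (Hspg2) and the type IV collagen chain Col4a1 had ratios of 1.75 and 1.66, and stayed below their quiescent levels of 462 and 647 CPM, at 379 and 485. Elastic fibre genes were split, with 1 of 15 higher and 2 lower. Ltbp4, which guides elastic fibre assembly and binds latent transforming growth factor beta, had 439 CPM in quiescent cells, 109 at day 4 and 548 at day 14, and was 5.05-fold higher (95% interval 4.84 to 5.26). Emilin1 and Efemp2, which take part in elastic fibre assembly, were 3.89-fold and 2.66-fold lower, and Fbln5 had a ratio of 1.94. Among 9 small leucine-rich proteoglycans Podn was 3.07-fold higher (95% interval 2.86 to 3.28), against 0.321 times as high in tenocyte-gated cells, while Bgn and Aspn were lower.

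Signalling genes changed in both directions, within some of the lists as well as between them. Of 11 genes for bone morphogenetic protein (BMP) and activin signals 5 were higher and none lower. The sum of this list was not higher, at 3193 CPM at day 4 and 2932 at day 14. Its median share of a thinned cell's UMIs was 0.28% on both days. The ligands Bmp4 and Bmp2 had 19.3 and 15.2 CPM at day 4 and 79.1 and 39.8 at day 14, 4.09-fold and 2.62-fold higher. Follistatin (Fst), which traps activin and myostatin, was 2.63-fold higher (95% interval 2.43 to 2.85), against a ratio of 0.489 in tenocyte-gated cells. Inhba, the activin A subunit, was also higher, at 9.61 and 20.6 CPM. Of 10 Wnt genes 3 were lower and none higher. Wisp1, a matricellular target of Wnt signalling, was 10.7-fold lower (95% interval 8.75 to 13.1), the secreted Wnt modulator Sfrp2 was 2.27-fold lower and Wisp2 2.05-fold, and Sfrp1 had 34.8 and 18.2 CPM. With no gate Wisp1 had a log2 ratio of -0.18 against -3.27. In the transforming growth factor beta list of 10, 2 were lower, among them the ligand Tgfb3 (2.11-fold), and 1, Ltbp4, was higher. The ligand Tgfb2 had a ratio of 1.96. Among 11 trophic factors, pleiotrophin (Ptn) was 4.01-fold lower (95% interval 3.64 to 4.41), against 2.32-fold higher in tenocyte-gated cells and a log2 ratio of 1.44 with no gate. Vegfa, the endothelial growth factor, was 3.77-fold higher (95% interval 3.1 to 4.59), and Ntf3 and Pgf had ratios of 1.91 and 1.62. Igf1 stood at 313 and 227 CPM. Of 4 binding proteins of insulin-like growth factors 1, Igfbp6, was higher, and Igfbp5, Igfbp4 and Igfbp7 had ratios of 1.67, 1.28 and 1.12.

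Lipid handling and sterol synthesis had a larger share of higher genes than the background of 8.01%, and cell cycle exit was near it. Of 15 genes tied to quiescence or cell cycle exit 2 were higher and none lower, with a median of 0.58. Pik3ip1, an inhibitor of phosphoinositide 3-kinase, was 3.72-fold higher and Txnip, which restrains glucose uptake, 2.35-fold. Both were also higher in tenocyte-gated cells, by 4.16-fold and 2.74-fold. The cell cycle inhibitor Cdkn1c and the factor Klf4 had ratios of 1.99 and 1.99, just under the call. Of 8 lipid genes 4 were higher and none lower. The transporters Abca8b and Abca8a were 4.45-fold higher (95% interval 4.05 to 4.9) and 3.29-fold higher (95% interval 3.15 to 3.43), and G0s2, an inhibitor of fat breakdown, 2.6-fold higher. The adipocyte marker Fabp4 was at 7.65 and 2.41 CPM. Of 16 sterol and fatty acid synthesis genes 7 were higher and none lower, and all 21 with at least 5 CPM were above 0. Idi1, Msmo1 and Hmgcs1, enzymes of cholesterol synthesis, were 2.98-fold, 2.69-fold and 2.04-fold higher. Summed, the list had 1011 CPM before injury, 2319 at day 2, a minimum of 598 at day 4 and 1027 at day 14.

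Early response genes, which tissue dissociation also induces, were higher in part. Of 18 members 6 were higher and none lower, and 5 of the 6 were also higher in both other classes. Ier2, an immediate early gene, was 8.78-fold higher (95% interval 8.35 to 9.24) in progenitors, 7.11-fold in tenocyte-gated and 4.32-fold in mural-gated cells. Jund and Junb, subunits of the AP-1 factor, were 4.58-fold and 3.85-fold higher and the heat shock protein Hspa1a 3.25-fold. Fos and Egr1 had ratios of 0.828 and 1.05. Per cell the list did not move the same way, with a median of 0.60% of UMIs at day 4 and 0.44% at day 14. The 90th percentile was 1.6% and 2.68%.

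Of the remaining lists, complement had 1 of 10 genes higher (Cd55) and 1 lower, the factor Cfb (2.23-fold). The central component C3 had 332 and 543 CPM, a ratio of 1.64 against 0.332 in tenocyte-gated cells, and Clu a ratio of 1.48. Of 9 imprinted growth genes 2 were lower, the noncoding RNA H19 (5.84-fold lower (95% interval 5.44 to 6.26), 397 to 68.1 CPM against 12.3 in quiescent cells) and the receptor adaptor Grb10 (2.04-fold). Peg3 went from 52.9 to 29.9 CPM. Detoxification and retinoid genes had 3 of 15 members on each side. All 3 lower genes were also lower in both the tenocyte-gated and the mural-gated cells, and none of the 3 higher genes was higher in both. The retinoic acid-forming enzyme Aldh1a2 was 4.91-fold lower and Cyp1b1, a cytochrome P450, 4.93-fold lower. Inmt, a methyltransferase, was 7.24-fold higher (95% interval 6.81 to 7.71) and Rbp4, the retinol carrier, 4.31-fold higher. Ribosomal protein genes had a median of 0.12 with 3 of 83 higher (Rps2, 8.21-fold, Rps12, 2.39-fold, and Rpl23a, 2.1-fold) and none lower. Vwa1, a pericellular matrix protein, and Efhd1, a mitochondrial calcium-binding protein, complete the 12 genes of highest ratio, at 9.75-fold and 6.37-fold higher. Efhd1 was 2.21-fold higher in tenocyte-gated and 1.57-fold in mural-gated cells.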

How the data were processed

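For each of 5 libraries, 1 per group, the authors deposited a matrix of raw UMI counts. Per the submitters' processing notes, Cell Ranger and mm10 were used. Its version, and how barcodes were called as cells, is not given in the sources used here. Raw counts of the kept cells were summed per library over 28001 features and scaled to CPM, so that 1 count is worth 0.0333 CPM at day 4 and 0.0803 at day 14. No test was made, since each group is 1 library. Ratios have exact conditional binomial 95% intervals, and shares of cells were taken after thinning each cell to 2500 UMIs. TMM (edgeR 4.0.16) and DESeq2 1.42.0 in R 4.3.3 served only as other scalings of the counts. The comparison was tested on simulated data with known ratios.

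The members and the 34 gene lists were chosen with earlier results of these data known. Genes named were the 12 of highest and the 12 of lowest log2 ratio with at least 100 CPM (without predicted, haemoglobin, ribosomal protein and mitochondrially encoded genes, gate genes and markers of other classes), per list the 4 members with at least 20 CPM that changed most, the 8 most abundant resting and induced genes, and Hic1, Pdgfra, Ly6a, Cd34, tdTomato and CreERT2. Of the genes this rule names, 2 are not reported here. Other members given for contrast were chosen after their values were seen. Where a symbol had more than 1 row, the one with most counts was used (Ltbp4 and Ccl19 among the lists), and 1 listed gene is not analysed here. Reads of ribosomal protein genes and their pseudogenes, and of overlapping genes, may be split between copies. Scrublet in scanpy 1.11.5 called 3 doublets in each library, 0.0730% and 0.0863% of cells, so few that it had not worked, and doublets remain. Promoters are RefSeq's for GRCm38.p6.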

Additional observations from a re-analysis of the deposited data

How the results depend on the processing

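The counts of higher and lower genes were 867 and 544 with a minimum of 5 CPM and 131 and 135 with a minimum of 100 CPM. Without genes also higher in tenocyte-gated and mural-gated cells 228 higher genes were left, and without genes also lower in both, 181 lower and 26 induced lower genes. These last alternatives, and one without genes low at day 2 (328 higher), were chosen after seeing the data. Of 66 counts under the alternatives, 59 stayed within 1.5 times the main count and 7 did not. No list median changed sign under its 12 alternatives. Ratios of the named genes were less stable than these counts. Of 1968 such values under the alternatives, 1170 were classed as the same as the main ratio, 796 as moved and 2 as reversed. For Gsn the log2 ratio ran from 1.14 to 1.63 around a main value of 1.57. The intervals given beside single genes cover counting error only and leave this spread out. With no gate the log2 ratio of Tagln was 0.68 and that of Ptn 1.44, a turn of direction for both. The contractile and injury matrix falls were smaller with no gate, as given beside them. Without cells with at least 2 UMIs of the mitosis list, which removes by construction the cells that carry it, 396 genes were higher and 217 lower, and the log2 ratio of Birc5 was -0.44. Without the cells that carried markers of other classes, 452 were higher and 303 lower. The smaller depth of the day 14 library limits genes near 0 there, where 3 counts are worth 0.241 CPM. No paired analysis was possible because each group is 1 library.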

Other observations

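Among day 4 progenitors, the 38 cells with the most Spp1 held between 524 and 2795 of its UMIs each and differed from the other 3772 in more than this gene. They were chosen on Spp1, so the values are a description with no test. Timp1 was at 5849 CPM in them and 812 in the others. Ctsc was at 809 against 198 CPM, Tmem176a at 1275 against 276, Tnc at 639 against 182 and Mmp13 at 445 against 36.4. Several of the genes of lowest day 14 ratio were thus high in the same few cells. Postn ran the other way, at 1373 CPM against 2755, and Ly6a at 1291 against 2591. Of the macrophage genes looked at, Ptprc, Adgre1 and C1qa had 0 UMIs in the 38 cells, Cd68 had 1 and Lyz2 had 7. Lyz2 was at 10.3 CPM in them against 8.14 in the others. Pdgfra, with 83 UMIs, was lower in them, at 122 against 191 CPM, and the muscle marker Des was higher, at 144 against 25.5. The 38 cells had a median depth of 16450 UMIs against 7016, and whether depth or doublets contribute was not tested.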
